A study of Homo sapiens with 4 samples.

Results

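The 10 genes described here encode the enzymes and partner proteins that copy, set and remove DNA methylation (DNMT1, UHRF1, HELLS, DNMT3A, DNMT3B, TET2 and TET3) and the core of the Polycomb repressive complex PRC2 (EZH2, EED and SUZ12). They were taken by symbol from the gene count tables, in which all 10 were found, out of 24462 genes. The tables come from HepG2, a human hepatocellular carcinoma cell line, with 1 library of QuantSeq 3′ mRNA sequencing per condition. In the drug arm, cells were given PD0332991, an inhibitor of the cell cycle kinases CDK4 and CDK6, or its solvent DMSO. In the siRNA arm, cells were transfected with siRNA oligos against CDK4 and CDK6 together (CDK4/6 KD) or with scrambled siRNA oligos. All 4 libraries share 1 cell line, and the sources used here do not give how much PD0332991 the cells received, for how long, or when RNA was taken after transfection. No difference below had a replicate check and none was tested.

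When DNA is replicated, the new strand starts without methyl groups. UHRF1 binds the hemimethylated CpG sites that result and brings DNMT1, which methylates the new strand, while HELLS is a chromatin remodeler that opens nucleosomal DNA to the methyltransferases. DNMT3A and DNMT3B methylate sites that carry no mark on either strand, and TET2 and TET3 oxidize methylcytosine, the first step of its removal. In PRC2, EZH2 is the subunit that methylates lysine 27 of histone H3, EED binds that mark and stimulates EZH2, and SUZ12 holds the complex together. Several of these genes are expressed mainly in dividing cells, and E2F factors, which the retinoblastoma protein Rb restrains until CDK4/6 phosphorylates it, are known to act on the promoters of many S phase genes.

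The promoter stretches below are shown because CDK4/6 act upstream of E2F and because these 5 genes hold letters of an E2F site near a start. RefSeq windows on GRCh38.p14, from 250 bases before to 50 bases after each annotated start, matched all 10 genes. They were searched on both strands for TTTCCCGC, TTTGGCGC, TTTCGCGC and TTTGCCGC, a set of letters chosen after the promoter sequences had been seen. The stretches are written 5′ to 3′ on the strand of the gene, with the matches in capitals and a match on the opposite strand appearing as its reverse complement. The UHRF1 stretch is chr19:4909421-4909500 (plus strand, start 1 of 3), that of HELLS is chr10:94545688-94545787 (plus strand), that of EZH2 is chr7:148884283-148884362 (minus strand, start 1 of 2), that of DNMT1 is chr19:10194948-10195027 (minus strand) and that of SUZ12 is chr17:31936797-31936876 (plus strand).
UHRF1: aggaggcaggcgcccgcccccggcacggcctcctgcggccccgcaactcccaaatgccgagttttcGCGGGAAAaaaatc
HELLS: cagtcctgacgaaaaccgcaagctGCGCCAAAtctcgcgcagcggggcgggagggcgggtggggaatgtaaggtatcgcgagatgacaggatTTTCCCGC
EZH2: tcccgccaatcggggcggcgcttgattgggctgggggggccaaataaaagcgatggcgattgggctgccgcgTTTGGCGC
DNMT1: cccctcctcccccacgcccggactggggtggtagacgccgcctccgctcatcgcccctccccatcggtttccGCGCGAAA
SUZ12: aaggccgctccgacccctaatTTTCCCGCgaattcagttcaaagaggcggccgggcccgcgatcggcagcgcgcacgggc

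The E2F letters were present in 5 of the 10 genes, against 5.08% of the 16153 genes of the tables that had a window. As these letters were chosen after the sequences had been seen, the shares cannot show an enrichment. In HELLS the letters occurred in 2 places, from base -76 to -69 and from base -8 to -1 relative to the start. The match lay at base -14 to -7 in UHRF1, which had another at base -160 to -153 of its start 2, at base 2 to 9 in EZH2, across the start (base -2 to 6) in DNMT1 and farther upstream (base -189 to -182) in SUZ12. The letters were not found in the windows of DNMT3A, DNMT3B, EED, TET2 and TET3. The CCAAT box, the recognition letters of the factor NF-Y, occurred on either strand in 7 of the 10 genes, against 41.8% of all genes, and in EZH2 it occurred 4 times. TTTGAA or TTCGAA, the core of the cell cycle homology region of G2/M genes, was present in 3 of 10 (DNMT3A, SUZ12 and TET2), against 17.6% of all genes. A match describes the letters of the window and does not show binding.

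**Figure D1:**
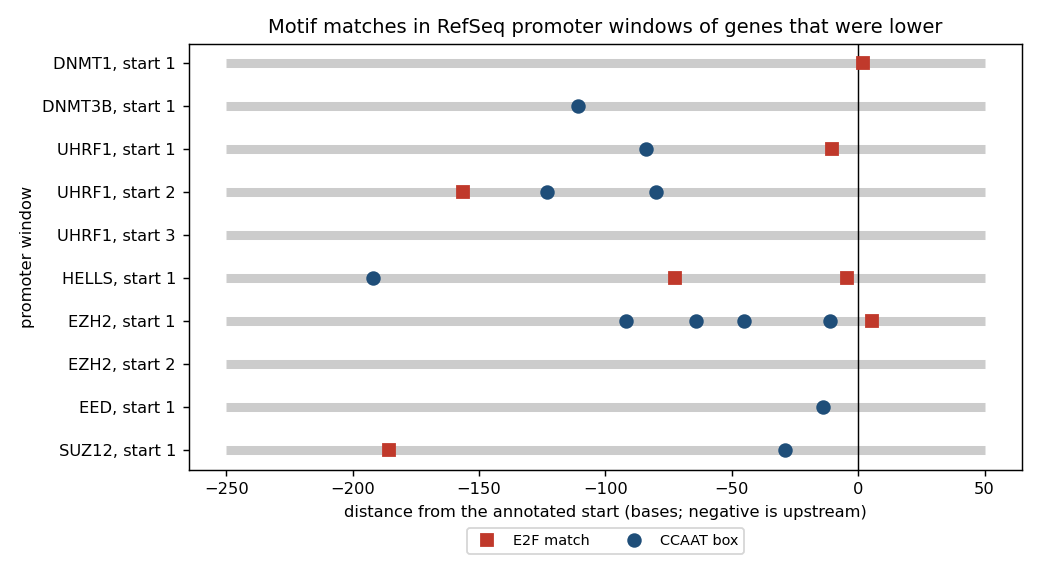
Positions of E2F letters (squares) and CCAAT boxes (circles) in the RefSeq promoter windows of the 7 genes whose interval lay under 1 in PD0332991 against DMSO. The x axis is the distance in bases from the annotated start, and each grey bar is 1 window. E2F letters lie within 14 bases of a start in UHRF1, HELLS, EZH2 and DNMT1.

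The libraries held between 8983848 and 11176880 reads, so that 1 read corresponded to about 0.0883 to 0.110 CPM, the unit of a count scaled to library size, here with edgeR's TMM factors. Each of the 10 genes had at least 51 reads in every library and passed the minimum of 10 reads in all comparisons. As a check of the knockdown, CDK4/6 KD held 71.9 CPM of CDK4 against 354 in its control, and 129 CPM of CDK6 against 536. All 10 hepatocyte markers had at least 10 reads in every library. Their interval lay above 1 for 8 in CDK4/6 KD (ALB at 2.01 and FGB at 2.62), against 30.0% of all genes. After PD0332991 it did for 7, against 28.1% of all genes. Of 15 keratinocyte markers, 10 had at least 10 reads in either library of each comparison. At least 2-fold higher were 5 after PD0332991 (7.49% of all genes) and 3 in CDK4/6 KD (9.19%), each against its control. In scrambled siRNA against DMSO, 5 were (5.30%). SFN went the other way in both arms, at 0.463 after PD0332991 (1221 to 563 reads) and 0.334 in CDK4/6 KD (3266 to 1152 reads). Taking the libraries as DMSO, PD0332991, scrambled siRNA, CDK4/6 KD, KRT5 had 2, 113, 13 and 43 reads, while KRT14 had 9, 249, 31 and 74. KRT6A had 9, 150, 37 and 28 reads, KRT16 had 2, 33, 12 and 8, and KRT17 had 15, 139, 16 and 36. The whole list summed to 1269, 1561, 1508 and 1377 CPM in that order. Most of this sum was DSP, at 887, 1104, 932 and 1016 CPM, so the sum does not follow these keratins. TP63, which defines that cell type, had at most 1 read per library, and the part of these transcripts in the results below was not tested.

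After PD0332991, the genes of methylation maintenance and PRC2 were mostly lower than in DMSO. The intervals of DNMT3A and TET3 included 1, and that of TET2 lay above 1. Fold changes are ratios of CPM with 0.5 reads added, and the 95% intervals are exact intervals on the split of reads, which cover counting error only and compare libraries rather than conditions. DNMT1, DNMT3B, UHRF1, HELLS, EZH2 and EED were at least 2-fold lower, which is 6 of 10 genes, against 7.06% of the 13443 genes compared. For 4 of them, DNMT1, UHRF1, HELLS and EZH2, the whole interval lay past 2-fold, against 3.38% of all genes. No gene of the 10 was at least 2-fold higher (7.49% of all genes), with the whole interval or without it (1.68%), and the median log2 fold change was -1.30, beside 0.02 over all genes. In bulk RNA, fewer cells that express a gene and less RNA of it per cell cannot be told apart.

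In CDK4/6 KD the same genes were closer to their control. UHRF1 alone was at least 2-fold lower than in scrambled siRNA, and 1 of 10 is close to the 7.62% of all 13617 genes. The interval lay under 1 for 6 genes (UHRF1, HELLS, DNMT3B, EZH2, EED and SUZ12), against 31.9% of all genes, and above 1 for DNMT1 and DNMT3A, against 30.0%. The median log2 fold change was -0.43, beside 0.00 over all genes. None of the 10 was at least 2-fold higher (9.19% of all genes), and none had its whole interval past 2-fold, lower (3.22%) or higher (3.33%). Summed over the 10 genes, the level was 894 CPM in DMSO, 345 in PD0332991, 594 in scrambled siRNA and 516 in CDK4/6 KD.

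**Figure D2:**
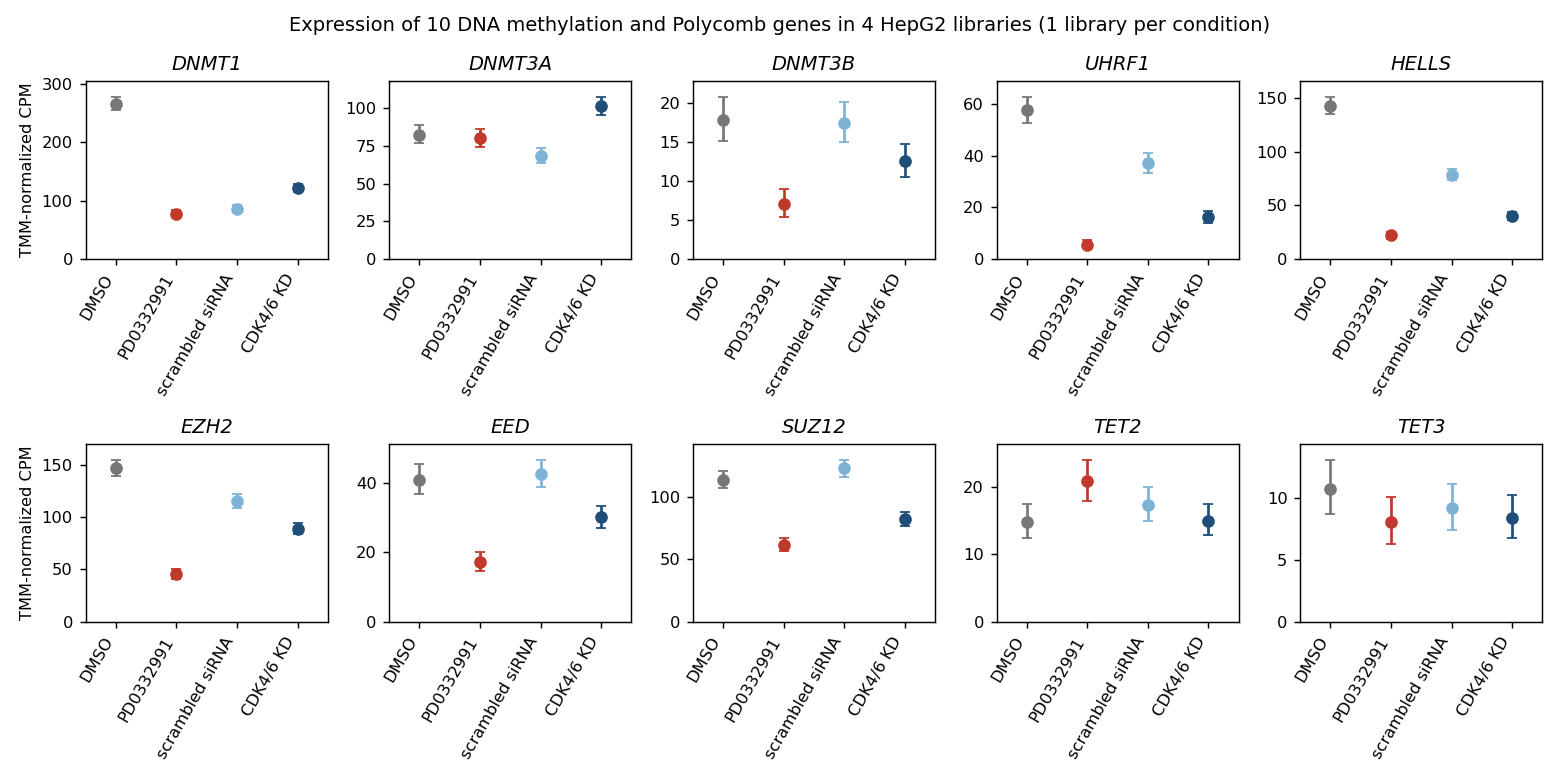
TMM-normalized CPM of each of the 10 genes (y axis, from 0) in the 4 libraries (x axis); points are single libraries and bars are exact 95% Poisson intervals, which cover counting error only. PD0332991 is the lowest library for 8 of the 10 genes, and DNMT1 is high in DMSO alone.

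UHRF1 (chr19:4903080-4962154, GENCODE 29 on GRCh38), the reader of hemimethylated DNA, had 525 reads in DMSO, 51 in PD0332991, 396 in scrambled siRNA and 183 in CDK4/6 KD. These correspond to 57.5, 5.60, 37.0 and 16.2 CPM. Both libraries with CDK4/6 inhibited or depleted were below both controls, and no pair of intervals next to each other in that order overlapped. The difference was larger after PD0332991 (fold change: 0.0983, 95% interval 0.0716 to 0.130) than in CDK4/6 KD (fold change: 0.438, interval 0.365 to 0.522). UHRF1 had the lowest fold change of the 10 genes in both comparisons.

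HELLS (chr10:94501434-94613905), the remodeler, followed the same order, with 1305 reads in DMSO, 201 in PD0332991, 840 in scrambled siRNA and 454 in CDK4/6 KD, or 143, 22.1, 78.5 and 40.1 CPM. Each of the 4 levels was apart from its neighbours by more than the counting error. The drug arm gave a fold change of 0.155 (interval 0.133 to 0.179) and the siRNA arm one of 0.511 (interval 0.455 to 0.573). The last exon of HELLS overlaps AL138759.1, a transcript annotated on the same strand, and reads there cannot be assigned to one or the other.

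DNMT1 (chr19:10133345-10231286), the maintenance methyltransferase, had another pattern. It had 2436 reads in DMSO, 706 in PD0332991, 922 in scrambled siRNA and 1374 in CDK4/6 KD, or 267, 77.5, 86.2 and 121 CPM. DMSO stood far above the other libraries, and the scrambled siRNA control was closer to PD0332991 than to DMSO. DNMT1 was thus lower after PD0332991 than in DMSO (fold change: 0.291, interval 0.267 to 0.316) but the knockdown exceeded its own control (fold change: 1.41, interval 1.30 to 1.53). Against scrambled siRNA, PD0332991 gave 0.900 (interval 0.815 to 0.994), and against DMSO, CDK4/6 KD gave 0.455 (interval 0.426 to 0.487), so that the side of 1 on which the knockdown lay depended on the control. The controls themselves differed by a fold change of 0.323 (interval 0.299 to 0.349) of scrambled siRNA to DMSO.

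The reads of UHRF1 per read of DNMT1 in the same library show how the pair moved apart. The ratio was 0.216 in DMSO (interval 0.196 to 0.237), 0.0722 in PD0332991 (interval 0.0533 to 0.0960), 0.430 in scrambled siRNA (interval 0.381 to 0.484) and 0.133 in CDK4/6 KD (interval 0.114 to 0.156). It was lower in each arm's treated library than in that arm's control, and none of the 4 intervals overlapped. UHRF2, a paralog of UHRF1, had 264, 178, 207 and 193 reads in the same order of libraries, and UHRF1 went from 1.99 reads per read of UHRF2 in DMSO to 0.287 in PD0332991, and from 1.91 in scrambled siRNA to 0.948 in CDK4/6 KD.

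The de novo methyltransferases differed from each other. DNMT3A (chr2:25227855-25342590) had 755 reads in DMSO, 731 in PD0332991, 731 in scrambled siRNA and 1148 in CDK4/6 KD, or 82.6, 80.3, 68.3 and 101 CPM. In the drug arm the interval included 1 (fold change: 0.972, interval 0.876 to 1.08), although against scrambled siRNA PD0332991 was at 1.18 (interval 1.06 to 1.30), and CDK4/6 KD was the highest library, above scrambled siRNA (fold change: 1.48, interval 1.35 to 1.63) and above DMSO (fold change: 1.23). DNMT3B (chr20:32762385-32809356) had 163, 64, 187 and 142 reads, or 17.8, 7.03, 17.5 and 12.5 CPM. The 2 control libraries were alike for DNMT3B within counting error (fold change of scrambled siRNA to DMSO: 0.980), and both treated libraries lay below them, at 0.396 (interval 0.290 to 0.529) for PD0332991 and 0.719 (interval 0.573 to 0.898) for CDK4/6 KD. DNMT1 had 3.23 reads per read of DNMT3A in DMSO (interval 2.97 to 3.51) and between 0.966 and 1.26 in the other libraries.

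The 3 PRC2 genes were lower in both treated libraries than in both controls. EZH2 (chr7:148807383-148884321), the catalytic subunit, had 1338 reads in DMSO, 414 in PD0332991, 1231 in scrambled siRNA and 1004 in CDK4/6 KD, or 146, 45.5, 115 and 88.7 CPM. EED (chr11:86244544-86278813) had 374, 156, 455 and 340 reads (40.9, 17.1, 42.5 and 30.0 CPM), and SUZ12 (chr17:31937018-32001045) had 1036, 559, 1312 and 930 reads (113, 61.4, 123 and 82.2 CPM). For EED and SUZ12 the controls did not differ beyond counting error, while scrambled siRNA had less EZH2 than DMSO (fold change: 0.786, interval 0.727 to 0.849).

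After PD0332991, EZH2 had the lowest of the 3 fold changes at 0.311 (interval 0.277 to 0.347), followed by EED at 0.419 (interval 0.345 to 0.506) and SUZ12 at 0.542 (interval 0.488 to 0.601). In CDK4/6 KD the values were 0.670 (interval 0.615 to 0.729) for SUZ12, 0.707 (interval 0.612 to 0.815) for EED and 0.771 (interval 0.709 to 0.839) for EZH2, and as all 3 intervals overlapped, no order was resolved. EZH2 had 1.29 reads per read of SUZ12 in DMSO (interval 1.19 to 1.40) and 0.741 in PD0332991 (interval 0.651 to 0.842), against 0.938 in scrambled siRNA (interval 0.867 to 1.01) and 1.08 in CDK4/6 KD (interval 0.986 to 1.18). EZH1, the other catalytic subunit, which is typical of resting cells, had only 72, 80, 109 and 93 reads. EZH2 thus went from 18.6 reads per read of EZH1 in DMSO to 5.18 in PD0332991 and was near 11 in both siRNA libraries, at 11.3 and 10.8. The annotation holds pseudogenes of EZH2 (EZH2P1) and of SUZ12 (SUZ12P1, counted on its own with 90 to 122 reads), whose reads could be shared with the parent genes.

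TET2 and TET3 varied least over the libraries, with a highest level 1.40 and 1.34 times the lowest. TET2 (chr4:105145875-105279816) had 135 reads in DMSO, 189 in PD0332991, 185 in scrambled siRNA and 169 in CDK4/6 KD, or 14.8, 20.8, 17.3 and 14.9 CPM. It was the only gene of the 10 with a higher level after PD0332991 whose interval excluded 1 (fold change: 1.40, interval 1.12 to 1.77), against 28.1% of all genes with an interval above 1. Against scrambled siRNA the PD0332991 fold change of TET2 was 1.20 and its interval, 0.975 to 1.48, included 1. TET3 (chr2:73986404-74108176) had 98, 73, 98 and 95 reads, or 10.7, 8.02, 9.16 and 8.39 CPM. For TET3 the intervals of both comparisons included 1, at 0.749 (0.544 to 1.02) and 0.917 (0.684 to 1.23), so that a difference was not detectable at this depth.

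**Figure D3:**
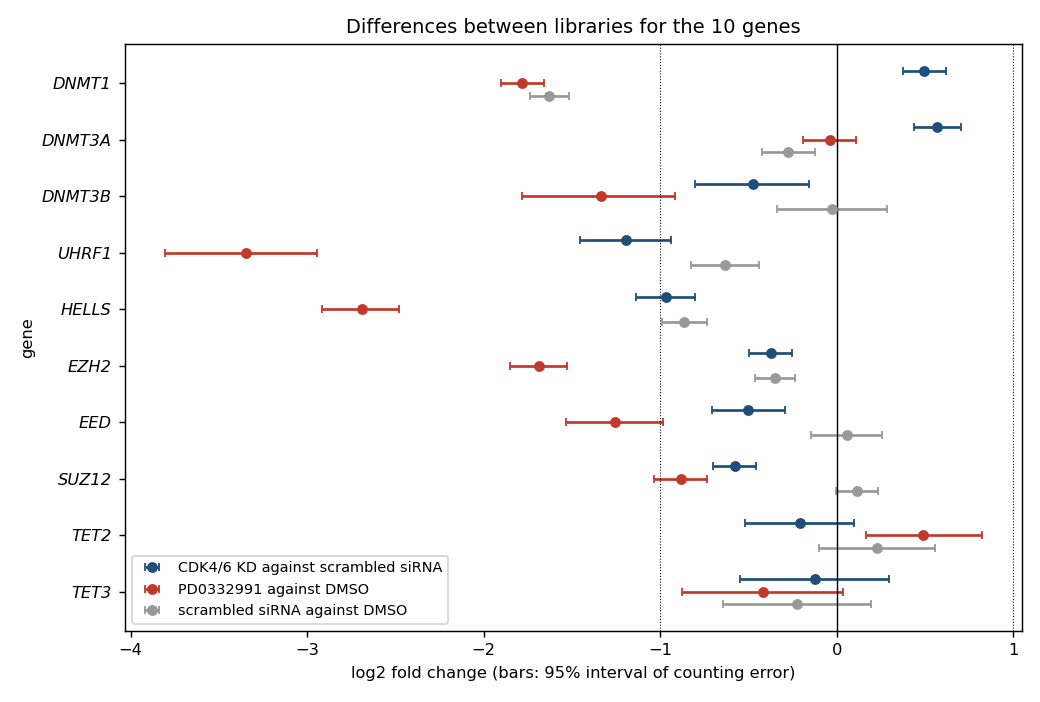
Log2 fold change (x axis) of the 10 genes for CDK4/6 KD against scrambled siRNA, PD0332991 against DMSO and the control libraries against each other; bars are 95% intervals of counting error and dotted lines mark 2-fold. PD0332991 points lie left of the CDK4/6 KD points for all genes but TET2, and DNMT1 lies near -1.63 between the controls.

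The fold change after PD0332991 was the lower of the 2 comparisons for 9 of the 10 genes, TET2 being the exception, and the intervals of the comparisons were apart for all but TET3. These comparisons have different controls, and the controls were not alike for every gene. Between scrambled siRNA and DMSO, DNMT1 alone was at least 2-fold lower, which is 1 of 10 genes against 6.64% of the 13303 genes compared, and its whole interval lay past 2-fold (1.99% of all genes). The interval lay under 1 for DNMT1, DNMT3A, UHRF1 (fold change: 0.644, interval 0.564 to 0.735), HELLS (fold change: 0.550, interval 0.503 to 0.600) and EZH2, or 5 of 10 genes against 28.0% of all genes. It included 1 for DNMT3B, EED, SUZ12, TET2 and TET3, and lay above 1 for none (28.3% of all genes), so that none was 2-fold higher (5.30%, or 1.24% by the whole interval). With DMSO as the control of the knockdown, 3 of 10 genes were at least 2-fold lower in CDK4/6 KD, against 8.16% of all genes, with UHRF1 at 0.282, HELLS at 0.281 and DNMT1 at 0.455. With scrambled siRNA as the control of PD0332991, 5 of 10 were, against 8.17% of all genes, since DNMT1 was no longer among them, and UHRF1 was at 0.153 and HELLS at 0.282.

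Genes whose products work beside the 10 were examined as lists. Of all genes, 7.06% were at least 2-fold lower and 7.49% higher after PD0332991. In CDK4/6 KD these shares were 7.62% and 9.19%. Among the other methylation maintenance factors, 2 of 6 were at least 2-fold lower after PD0332991 and none in CDK4/6 KD. CDCA7, which recruits HELLS to chromatin, had 95.5 CPM in DMSO, 14.8 in PD0332991, 39.7 in scrambled siRNA and 22.6 in CDK4/6 KD. Its fold change after PD0332991, 0.156 (interval 0.128 to 0.186), was close to the 0.155 of HELLS, and its CDK4/6 KD value was 0.570. With the other arm's control these values were 0.374 and 0.237. CDCA7L, its paralog, was at 0.380 (88 to 33 reads) and ZBTB24, a zinc finger factor that activates CDCA7, at 0.578 after PD0332991, although against scrambled siRNA the interval of ZBTB24 included 1 (fold change: 0.879, interval 0.722 to 1.07). USP7, a deubiquitinase that binds UHRF1 and DNMT1, was nearer its controls, at 0.850 after PD0332991 and 0.866 in CDK4/6 KD. DNMT3L, a cofactor of de novo methylation, had 5, 10, 0 and 19 reads and was at least 5.99-fold higher in the knockdown when its control was set to 3 reads. That bound leaves out the counting error of the 19 reads, with which the interval starts at 4.41, and against DMSO the fold change was 2.90 (interval 1.11 to 10.5).

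Of 5 other genes of TET and base excision demethylation, none was past 2-fold in either comparison. TET1 was lower in both treated libraries (fold changes: 0.772 after PD0332991 and 0.569 in CDK4/6 KD), unlike TET2. TDG, the glycosylase that removes oxidized methylcytosine, was at 0.520 in CDK4/6 KD (interval 0.463 to 0.582), but scrambled siRNA was the library that stood apart, 2.03-fold above DMSO, and against DMSO CDK4/6 KD was at 1.06. NEIL1, another glycosylase, had 56 reads in DMSO and 109 after PD0332991 (fold change: 1.94, interval 1.40 to 2.75). The 7 listed genes of the families of methyl-CpG-binding proteins were also all within 2-fold. MBD2 was lower in both comparisons (0.735 after PD0332991 and 0.769 in CDK4/6 KD), whereas MBD3 was at 0.809 after the drug and 1.47 in the knockdown. With the other arm's control the intervals of MBD3 included 1 in both (1.09 and 1.09), as did that of MBD2 in the knockdown (0.956).

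The other PRC2 core genes were nearer their controls than EZH2, EED and SUZ12. RBBP7, a histone-binding subunit, was at 0.774 after PD0332991 and 0.854 in CDK4/6 KD, its paralog RBBP4 at 0.854 and 1.17 in the same order (1.25 and 0.802 with the other arm's control, on the opposite sides of 1), and the intervals of EZH1 included 1 in both. Of 7 accessory subunits, 2 were at least 2-fold lower after PD0332991, against 7.06% of all genes. PHF19, which binds methylated H3K36 and takes PRC2 to target sites, had 72.2 CPM in DMSO, 10.8 in PD0332991, 45.0 in scrambled siRNA and 26.3 in CDK4/6 KD. Its fold change of 0.150 (interval 0.119 to 0.184) after PD0332991 was below that of EZH2, and in CDK4/6 KD it was at 0.585. With the other arm's control PHF19 was at 0.240 and 0.365. C17orf96, also known as EPOP, was at 0.466 after PD0332991 and 0.556 in CDK4/6 KD, with controls that did not differ beyond counting error. PHF1, a relative of PHF19, went the other way in CDK4/6 KD, with 125 reads against 53 in the control (fold change: 2.22, interval 1.60 to 3.14), and against DMSO at 1.23 its interval included 1.

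Genes of PRC1, the complex that reads H3K27 methylation and ubiquitinates histone H2A, were spread around their controls after PD0332991. Past 2-fold were 0 of 22, against 7.06% of all genes lower and 7.49% higher, and the median log2 fold change was 0.11. The chromobox genes differed among themselves. CBX2 was lower after PD0332991 (fold change: 0.568, interval 0.466 to 0.689), and CBX7 had 138 reads in the knockdown against 34 in its control (fold change: 3.80, interval 2.62 to 5.76). CBX7 was also higher against DMSO, at 2.63. PHC2 and RYBP were at least 2-fold lower in CDK4/6 KD (0.453 and 0.493), and against DMSO they were at 0.809 and 0.594. The H3K27 demethylases KDM6A and KDM6B were at 1.51 and 1.21 in CDK4/6 KD and at 1.27 and 1.49 after PD0332991, with intervals above 1 for KDM6A in the knockdown and KDM6B after the drug. Of 5 genes that make or recycle S-adenosylmethionine, the methyl donor, none was past 2-fold. MAT2B, a regulatory subunit of the synthetase, was at 0.561 after PD0332991 and at 0.994 (interval 0.823 to 1.20) against scrambled siRNA, and MTR, methionine synthase, at 0.650 in CDK4/6 KD.

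**Figure D4:**
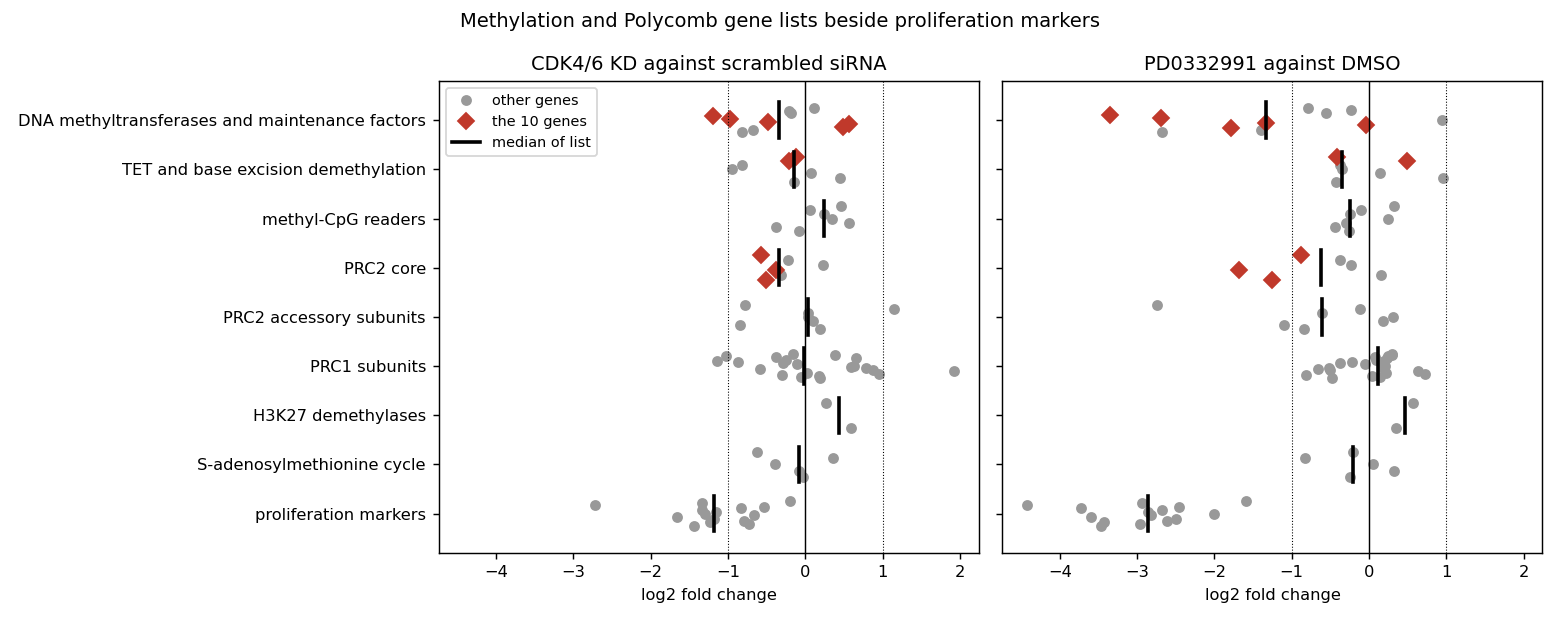
Log2 fold change (x axis) of genes by list (y axis) in CDK4/6 KD against scrambled siRNA and in PD0332991 against DMSO; diamonds are the 10 genes, circles are other genes, black bars are list medians with the 10 genes included, and DNMT3L is left out of the CDK4/6 KD points and median because scrambled siRNA had no reads of it. The proliferation markers lie farthest to the left, with all 15 past 2-fold after PD0332991.

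Proliferation markers were lower in both arms, as were UHRF1, HELLS, DNMT3B, EZH2, EED and SUZ12. The intervals of DNMT1, DNMT3A, TET2 and TET3 did not lie under 1 in both arms. All 15 listed markers, among them MKI67, CDK1 and RRM2, were at least 2-fold lower after PD0332991 (median log2 fold change -2.86), against 7.06% of all genes. In CDK4/6 KD 9 of 15 were (median -1.18), against 7.62% of all genes. In scrambled siRNA against DMSO, the interval lay under 1 for 12 of 15 markers (median -0.58), against 28.0% of all genes. There DNMT1 was at -1.63, HELLS at -0.86 and UHRF1 at -0.63. The part of the proliferation difference in the levels of the 10 genes was not tested, and counts within a library were set against MKI67 to describe it. UHRF1 had 0.139 reads per read of MKI67 in DMSO (interval 0.126 to 0.152), 0.179 in PD0332991 (interval 0.130 to 0.242), 0.131 in scrambled siRNA (interval 0.118 to 0.146) and 0.102 in CDK4/6 KD (interval 0.0873 to 0.119). That ratio ran from 0.102 to 0.179, while the level of UHRF1 itself varied 10.3-fold over the libraries. EZH2 per MKI67 was 0.354, 1.45, 0.408 and 0.561 in the same order of libraries, and DNMT1 per MKI67 was 0.644, 2.48, 0.306 and 0.767. Both ratios to MKI67 were higher in each treated library than in its control. The ratios depend on the marker chosen. After PD0332991 the log2 fold changes of the 15 markers ran from -4.425 (RRM2) to -1.60 (TYMS), with MKI67 at -3.72. UHRF1 was at -3.35, between RRM2 and TYMS, while DNMT1 at -1.78 and EZH2 at -1.69 were below TYMS. Ratios to the other markers were not examined.

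**Figure D5:**
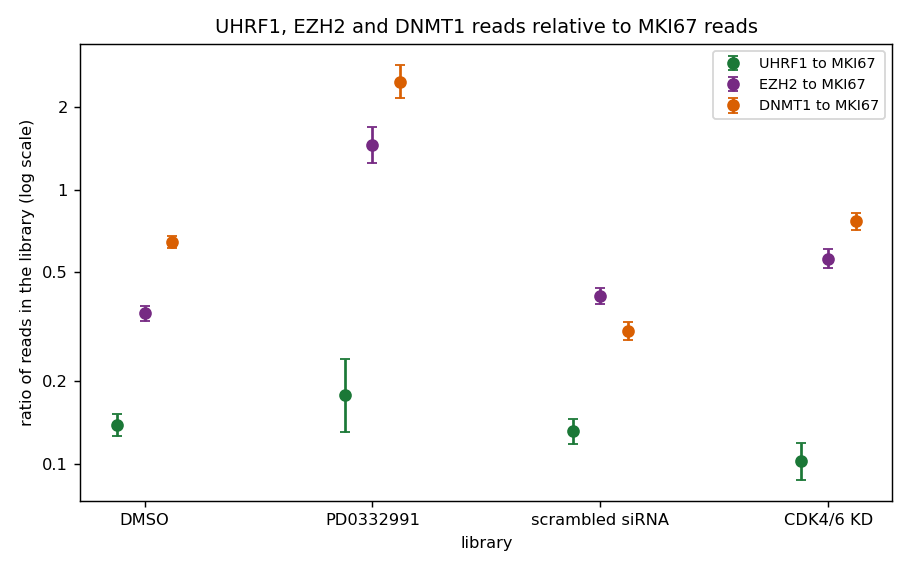
Reads of UHRF1, EZH2 and DNMT1 per read of MKI67 in each library (y axis, log scale; x axis, the 4 libraries); bars are exact 95% intervals of counting error. UHRF1 stays between 0.102 and 0.179, whereas EZH2 reaches 1.45 and DNMT1 2.48 in PD0332991.

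The genes most like each maintenance gene over the 4 libraries were found by the root mean square difference of log2 CPM after centring each gene on its own mean, among the 9228 genes that averaged 100 reads or more. With 4 libraries this is a description of levels only. The closest to UHRF1 were HJURP (0.06), KIFC1 (0.09) and ARHGAP11A (0.09), of which HJURP is the chaperone of the centromeric histone CENP-A and KIFC1 a mitotic kinesin. The closest to HELLS were KIF14 (0.06), TROAP (0.07) and SAPCD2 (0.09), and the closest to EZH2 were HIST1H1C (0.05), ANP32E (0.06) and CCDC138 (0.06). Among the genes nearest to DNMT3B were ITGB3BP (0.02) and EED (0.03), which is 1 of the 10 genes. No gene came as near to DNMT1, for which the closest were KDELC2 (0.15), RMI1 (0.18) and DUSP7 (0.19).

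Genes that DNA methylation or Polycomb keeps silent in most somatic cells were read as an outcome of the marks, although neither mark was measured in these libraries. Of 15 germline genes that carry promoter methylation in somatic cells, such as DAZL, DDX4 and MAGEA1, 13 had at most 3 reads in each of the 4 libraries, where 3 reads correspond to 0.265 to 0.329 CPM. The exceptions were SYCP3, with 569, 665, 672 and 589 reads, and PIWIL2, with 10, 13, 32 and 24 reads, and neither was past 2-fold in PD0332991 or CDK4/6 KD. Of 21 developmental regulators that Polycomb holds in many cell types, 16 had at most 3 reads in each library, and 3 had at least 10 reads. Among these, PAX6 was at 0.493 (81 to 42 reads) and NKX2-5 at 0.357 (30 to 11 reads) in CDK4/6 KD, with intervals under 1. Against DMSO the interval of PAX6 included 1 (fold change: 0.849, interval 0.536 to 1.34), and NKX2-5 was at 0.381. After PD0332991, where EZH2 was lowest, PAX6 (40 to 25 reads) and NKX2-5 (24 to 18 reads) had intervals that included 1, while PAX6 was at 0.367 (interval 0.222 to 0.574) against scrambled siRNA. No gene of either list that had at most 3 reads in a control reached 10 reads in a treated library.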

How the data were processed

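Total RNA of 4 HepG2 cultures was sequenced with the QuantSeq 3′ kit (single-end, Illumina). The authors deposited raw counts of reads per gene symbol for each library, without normalization. The submitters' processing notes name Bowtie2, edgeR and hg19. The counter, the annotation and the use of strand are not given in the sources used here. Each table had 25737 entries, and those sharing a symbol (286 symbols, none of them of the 10 genes) were added up.

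TMM factors (0.957 to 1.03) and CPM came from edgeR 4.0.16 (R 4.3.3). For fold changes, 0.5 reads, adjusted for library size, were added to each count, and genes under 10 reads in both libraries were dropped. Intervals are 95% Clopper-Pearson (fold changes, ratios) and exact Poisson (levels), from scipy 1.17.1, and cover counting error only. They treat each read as independent. No molecular identifiers are named, so that reads copied in amplification could not be told apart and the intervals may be too narrow. Because no condition had a second library, the quasi-likelihood test of edgeR was not possible, and no p-value is given. The procedure was tested on simulated data.

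The 10 genes, the lists and the comparisons were chosen with earlier results of these data known. Named were all 10 genes and up to 3 others per list and comparison whose interval lay farthest from 1, with any gene a result turned on. EZH1, and values of a named gene in its other comparisons, were added after they were seen. Some genes that this rule names are not reported here. Gene positions come from GENCODE 29, promoters from RefSeq.

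Alternatives tried were library size from total counts alone, from DESeq2 1.42.0 or by quantile normalization (limma 3.58.1), a pseudocount of 5 reads, no filter or 50 reads, the entry with most reads where a symbol was repeated, a threshold of 1.5-fold, the whole interval past 2-fold, and the other arm's control.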

Additional observations from a re-analysis of the deposited data

Results flagged for a closer look

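DNMT1 was the only gene of the 10 whose intervals lay on opposite sides of 1 in the 2 arms, with a fold change of 1.41 in CDK4/6 KD against scrambled siRNA and 0.291 in PD0332991 against DMSO. The difference between the arms was not tested, since each condition had 1 library.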

How the results depend on the processing

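The control library and the threshold moved the counts. The number of the 10 genes at least 2-fold lower in CDK4/6 KD was 1 against scrambled siRNA and 3 against DMSO, 2 with a threshold of 1.5-fold, and 0 by the whole interval. DNMT1 in CDK4/6 KD turned from 1.41 to 0.455 with DMSO as the control. The number lower in scrambled siRNA than in DMSO was 1, and 3 with a threshold of 1.5-fold. For PD0332991 the number stayed within 1.5 times of 6 under every alternative run, the lowest being 4 with the whole interval. Of 170 fold changes of single genes that were recomputed, 160 moved by less than their interval, 9 moved by more and 1 changed side. All 10 of these came from the 20 values with another control, so that no size factor, pseudocount or handling of repeated symbols did so. Total counts alone moved the median of all genes in CDK4/6 KD to 0.10 on the log2 scale. No paired analysis was possible because each condition had 1 library, and for the same reason no library could be left out. Counts of 51 to 2436 reads per gene set the counting error, while the spread between cultures is unknown.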
